A study of Homo sapiens with 27 samples.

Results

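The genes described here are MYC and 49 genes of ribosome biogenesis, chosen by name: abundant nucleolar proteins, proteins of small nucleolar ribonucleoproteins (snoRNPs), RNA-modifying enzymes, assembly factors of both ribosomal subunits, genes of transcription by RNA polymerases I and III, and the nucleotide kinase NME1. All 50 were found by symbol among the 58721 genes of the count table, and all 50 were among the 25199 genes that passed the low-count filter. RNA was sequenced from 27 libraries of A375, an established melanoma line of human origin whose BRAF kinase is mutated and active, and these formed 9 groups of 3. Knockout cells carried guide 1 or guide 2 against TADA2B, a subunit of the histone-acetylating complex SAGA, and control cells carried a guide against GFP, which has no target in human cells. Each of these 3 populations was given trametinib at 20 nM, which blocks the kinase MEK, vemurafenib at 1 µM, which blocks mutant BRAF, or the solvent DMSO, for 24 h. The labels call the GFP-guide cells wild type and do not say whether a knockout population is 1 clone or a pool, nor whether replicates are different cultures, so p-values measure the spread between libraries, which may be technical.

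Ribosomes are built in the nucleolus. RNA polymerase I transcribes the large ribosomal RNA precursor, RNA polymerase III transcribes 5S ribosomal RNA and transfer RNAs, and snoRNPs and many assembly factors modify, fold and cut the precursor into the small and large subunits. The transcription factor MYC binds E-box sequences, CACGTG at their best known, and is known for driving many of these genes. MEK and ERK signalling downstream of mutant BRAF is known to sustain MYC in melanoma.

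TADA2B, the targeted gene, was at 34.2, 35.7 and 34.8 CPM with guide 1 and 28.8, 29.4 and 29.8 CPM with guide 2, against 40.5, 40.7 and 42.8 CPM in control cells, under trametinib. CPM are each gene's counts relative to the library's total as scaled by edgeR's TMM factors. Under vemurafenib it was at 32.2, 31.8 and 33.8 CPM and 27.6, 29.3 and 28.6 CPM, against 42.5, 43.7 and 45.2 CPM. The knockout libraries were all lower under both drugs, with log2 fold changes of -0.37 and -0.52 (edgeR adjusted p = 1.17e-12 and 1.01e-17). In DMSO it was at 29.6, 31.1 and 30.6 CPM and 28.97, 27.3 and 29.6 CPM, against 30.2, 31.2 and 32.1 CPM, and the log2 fold change of -0.08 over both guides did not pass the test (adjusted p = 0.0629). In DMSO the guide 1 libraries overlapped the control libraries and the guide 2 libraries lay below them. An edited transcript can still be counted, so these levels do not measure the protein. Library totals lay between 67502300 and 92513726 counts. Markers of the melanocyte lineage summed to between 383 and 616 CPM in knockout cells and between 1059 and 1132 CPM in control cells in DMSO, and to between 500.3 and 852 CPM, against 2294 to 2428 CPM, under the drugs. Single markers went both ways. In DMSO 3 of the 10 were called higher in knockout cells (adjusted p under 0.05) and 6 lower, where 29.3% and 28.6% of all genes were. Under trametinib 1 was higher and 7 lower, where 27.1% and 28.8% were. Under vemurafenib 1 was higher and 8 lower, where 27.3% and 28.3% were. The 6 fibroblast markers summed to between 60.9 and 76.8 CPM in knockout cells, against 35.8 to 36.9 CPM in control cells, in DMSO, and to between 97.7 and 139 CPM, against 58.1 to 63.4 CPM, under the drugs, and 5 of the 6 had at least 1 CPM in each group. Of these 6, 3 were called higher in knockout cells in DMSO, 3 under trametinib and 3 under vemurafenib. Called lower were 1 in DMSO, 0 under trametinib and 2 under vemurafenib. The share of counts from the mitochondrial genome was 3.13% to 3.60% in drug-treated knockout cells, 2.05% to 2.38% in drug-treated control cells, 2.33% to 2.74% in knockout cells in DMSO and 1.58% to 1.68% in control cells in DMSO. The part of these shares and markers in the results below was not tested.

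An E-box, searched as CACGTG, which reads the same on both strands, was present in the promoter windows of 22 of the 41 members with a window in the RefSeq promoter table (GRCh38.p14, 250 bases before to 50 bases after each gene's start). A gene can have more than 1 window, and it was counted where any of its windows held the motif. That is 53.7% of these members, against 11.4% of the 14223 other tested genes with a window. By window it is 23 of 52 (44.2%), against 7.26% of all windows in the table. That last background differs, since it includes windows of the members and of genes not tested. Counted by gene, 8.77% of all genes with a window held the motif. The stretches below are the 80 bases before a RefSeq start of 4 of the 22, shown because they hold the same letters and span the range of the drug responses described next; capitals mark the E-box, which begins at position -64 from the start in LYAR, -31 in DDX21, -11 in NOP10 and -15 in NAT10. They lie at chr4:4290022-4290101 on the minus strand, chr10:68956567-68956646 on the plus strand, chr15:34343137-34343216 on the minus strand and chr11:34105549-34105628 on the plus strand.
LYAR: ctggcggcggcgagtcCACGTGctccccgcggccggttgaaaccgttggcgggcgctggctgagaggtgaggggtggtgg
DDX21: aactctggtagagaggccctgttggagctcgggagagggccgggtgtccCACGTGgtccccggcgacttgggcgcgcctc
NOP10: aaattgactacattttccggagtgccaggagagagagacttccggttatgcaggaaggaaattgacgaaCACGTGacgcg
NAT10: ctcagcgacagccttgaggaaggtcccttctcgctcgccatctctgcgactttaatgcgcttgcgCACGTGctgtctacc
RefSeq gives LYAR and DDX21 another start each, whose window holds no CACGTG, and the NOP10 window holds another E-box at -170. In the GENCODE annotation the LYAR and DDX21 stretches lie within the gene, and those of NOP10 and NAT10 overlap its first bases. A match of these letters is a description of the window, not a measured binding site. POLR3G, RRP12, NOP58, BOP1, RRP1B, MYC, NOLC1, RRS1 and TCOF1 were not analysed for the motif.

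In control cells, both drugs lowered 49 of the 50 genes, and MYC fell furthest. MYC was at 1.39, 1.45 and 1.26 CPM under trametinib and at 3.83, 3.51 and 2.98 CPM under vemurafenib, against 21.9, 23.3 and 23.7 CPM in DMSO. No library of either drug came near the DMSO libraries. The log2 fold change was -4.07 ± 0.11 (SE) under trametinib, a 16.8-fold fall (edgeR adjusted p = 6.79e-34), and -2.74 ± 0.10 under vemurafenib, a 6.67-fold fall (adjusted p = 6.42e-29). The count of 49 members lower and 1 higher was found for each drug, but with library totals in place of TMM factors it was 48 lower and 2 higher under vemurafenib. Over all genes tested, 32.5% were called lower and 36.4% higher under trametinib, and 31.6% lower and 35.7% higher under vemurafenib. The median log2 fold change of the members was -1.33 under trametinib, beside 0.06 for all genes tested, and -1.18 under vemurafenib, beside 0.06. The fall was at least 2-fold in 38 members under trametinib, where 12.4% of all genes were called and at least 2-fold lower, and in 34 under vemurafenib, where 11.3% were. In bulk RNA, fewer cells with a transcript and less of it per cell cannot be told apart.

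**Figure D1:**
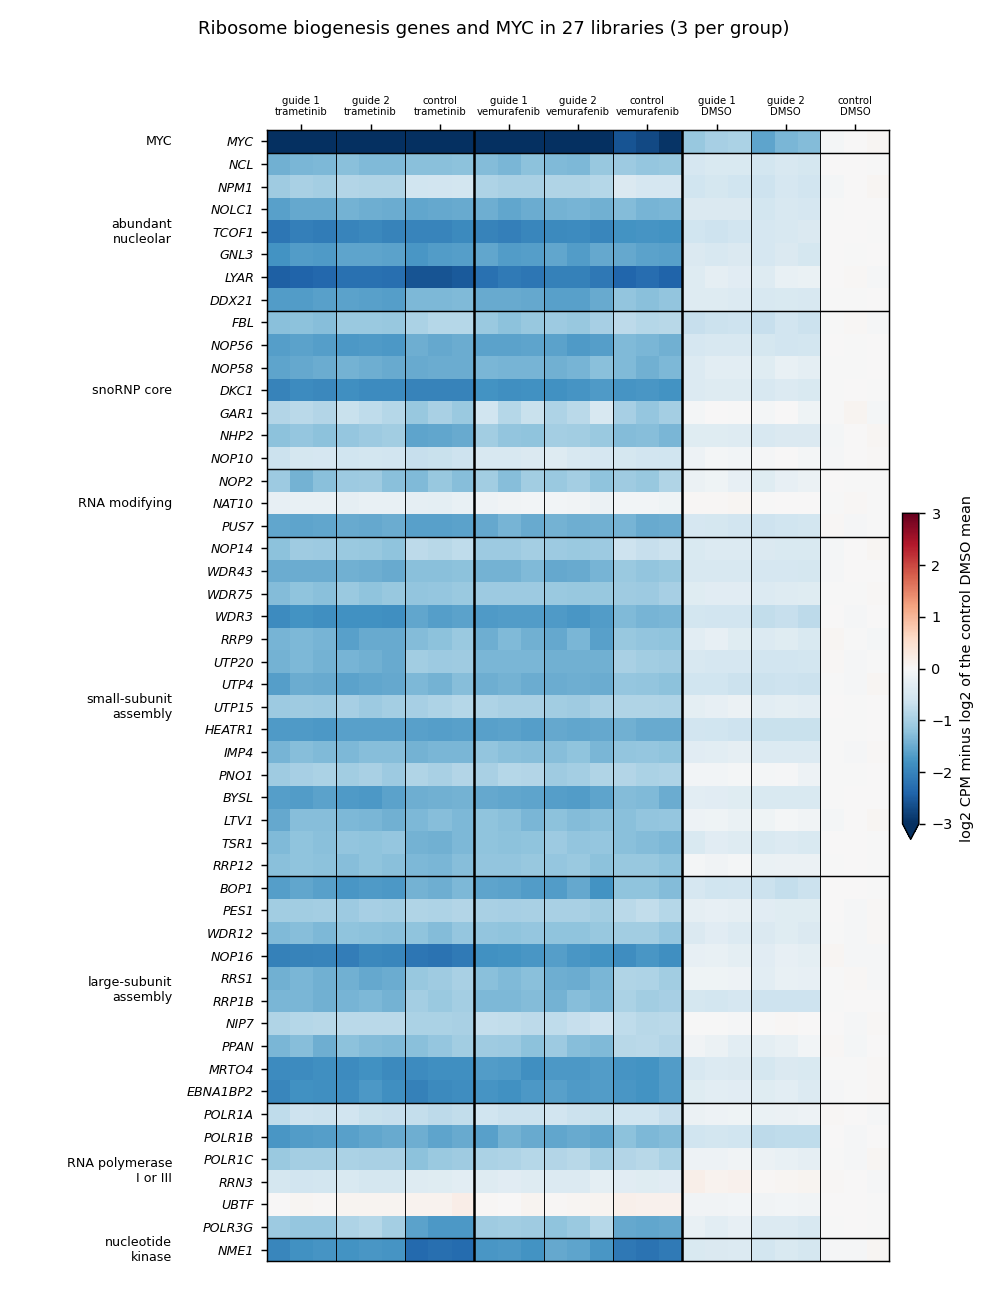
Log2 CPM of each gene in each library minus the log2 of its mean in control cells in DMSO. Rows are the 50 genes by role, and columns are libraries in groups of 3. The scale stops at -3, below which MYC lies under trametinib and, in knockout cells, under vemurafenib. Blue fills the drug-treated columns in most rows, UBTF stands out from them, and pale blue fills most knockout rows in DMSO.

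Among the abundant nucleolar proteins, 7 of 7 fell under each drug, with medians of -1.53 under trametinib and -1.36 under vemurafenib. LYAR, a nucleolar regulator of ribosomal RNA processing encoded at chr4:4267701-4290169 (hg38), fell most of the 49 genes beside MYC. It was at 17.5, 17.5 and 18.4 CPM under trametinib and 20.3, 21.7 and 20.0 CPM under vemurafenib, against 106, 108 and 103 CPM in DMSO. The drug libraries lay far below all DMSO libraries, and the log2 fold changes were -2.57 ± 0.05 (adjusted p = 4.43e-41) and -2.36 ± 0.05 (adjusted p = 1.19e-39). TCOF1, the treacle protein that links polymerase I to early processing, fell by 1.95 and 1.79 on the log2 scale. DDX21, a nucleolar RNA helicase, fell by 1.34 and 1.20. NPM1, nucleophosmin, the most abundant member per kb of exon, fell less, with log2 fold changes of -0.57 and -0.48. NPM1 has 45 annotated pseudogenes, the highest of which averaged 83.6 CPM, so reads may be split between copies and its values are uncertain.

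The snoRNP core proteins and the modifying enzymes fell together with them. All 7 core proteins fell under each drug, with medians of -1.5 and -1.32. DKC1, the pseudouridine synthase of H/ACA snoRNPs, was at 56.1, 55.4 and 55.5 CPM under trametinib and 65.6, 66.9 and 64.5 CPM under vemurafenib, against 221, 227 and 223 CPM in DMSO. That was a log2 fold change of -2.01 ± 0.03 (adjusted p = 3.05e-43) and -1.77 ± 0.03 (adjusted p = 4.66e-41), with no overlap between groups. FBL, the methyltransferase of box C/D snoRNPs, fell by 0.88 and 0.82, and NOP10, a small H/ACA protein, by 0.67 and 0.57. Of the 3 modifying enzymes, PUS7, a pseudouridine synthase, fell by 1.62 and 1.46, while NAT10, an RNA acetyltransferase, fell by 0.26 and 0.10. The methyltransferase NOP2 also fell, but 54.4% of its exonic bases lie in exons of an overlapping gene on the same strand, so its counts are uncertain.

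All 25 assembly factors of both subunits fell under each drug. The 15 small-subunit factors had medians of -1.33 under trametinib and -1.18 under vemurafenib, and ranged in trametinib between -1.64 for HEATR1, a factor of the early processome, and -0.80 for NOP14. The 10 large-subunit factors had medians of -1.19 and -1.04. NOP16 was at 13.0, 12.6 and 13.4 CPM under trametinib and 16.1, 17.5 and 16.2 CPM under vemurafenib, against 60.6, 56.9 and 57.0 CPM in DMSO, and the log2 fold changes were -2.16 ± 0.05 and -1.81 ± 0.05 (adjusted p = 2.12e-37 and 1.51e-34). EBNA1BP2 fell by 1.93 and 1.74, and MRTO4 by 1.86 and 1.74. Uncertain by shared exons on the same strand were PPAN, with 56% of its exonic bases in a read-through gene, LTV1, with 27.7%, and RRS1, with 11.4%.

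Of the 6 genes of polymerase I and III transcription, 5 fell and 1 rose. POLR3G, an alternative subunit of RNA polymerase III encoded at chr5:90471748-90514553, was at 17.2, 16.0 and 15.9 CPM under trametinib and 18.3, 18.0 and 18.1 CPM under vemurafenib, against 52.2, 53.5 and 52.1 CPM in DMSO. Its log2 fold changes were -1.68 ± 0.06 (adjusted p = 9.49e-31) and -1.54 ± 0.05 (adjusted p = 3.35e-29), and drug and DMSO libraries did not overlap. POLR1B, the second largest polymerase I subunit, fell by 1.52 and 1.29, and RRN3, the factor that readies polymerase I for initiation, fell by 0.37 and 0.34. UBTF, the factor that keeps ribosomal DNA open for polymerase I, was the member that rose. It was at 189, 188 and 199 CPM under trametinib and 194, 192 and 191 CPM under vemurafenib, against 176, 175 and 174 CPM in DMSO. Every drug library was above every DMSO library, and the log2 fold change was 0.14 ± 0.03 for each drug (adjusted p = 2.2e-05 and 1.41e-05). NME1, a nucleoside diphosphate kinase encoded at chr17:51153536-51162428, was at 21.8, 23.1 and 22.4 CPM under trametinib and 25.1, 23.7 and 25.5 CPM under vemurafenib, against 108, 108 and 115 CPM in DMSO. Its log2 fold changes of -2.30 ± 0.05 and -2.15 ± 0.05 (adjusted p = 7.53e-40 and 9.55e-39) were the largest after MYC and LYAR, and 18.6% of its exonic bases are shared with a read-through gene.

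**Figure D2:**
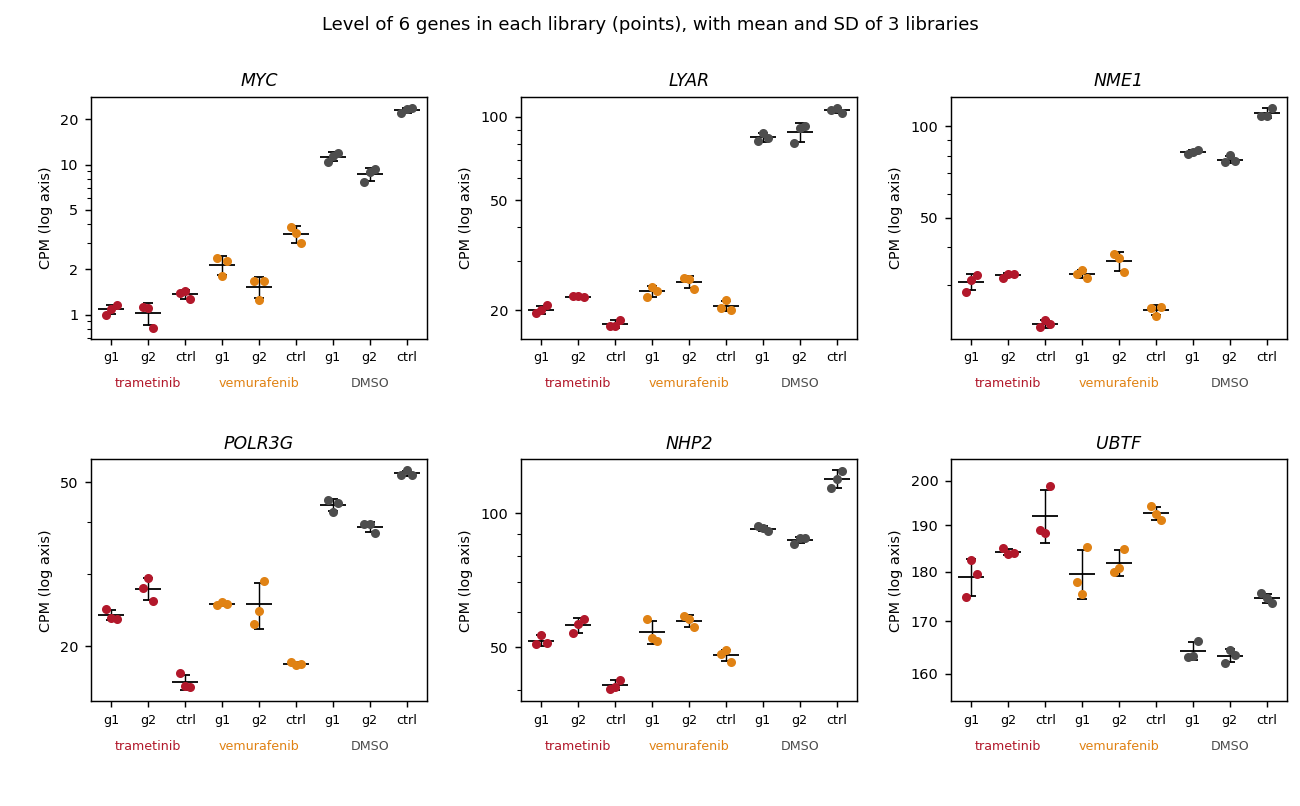
CPM on a log axis of 6 genes in each library (points), with the mean and SD of 3 libraries, for guide 1 (g1), guide 2 (g2) and control (ctrl) cells under trametinib, vemurafenib and DMSO. MYC spans a mean of 1.02 to 23.0 CPM; POLR3G, NME1, NHP2 and LYAR stand higher in knockout than in control cells under each drug and lower in DMSO, and UBTF is highest in drug-treated control cells.

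The drug responses of members with and without an E-box in a window covered overlapping ranges. Under trametinib the 22 members with the motif had a median of -1.29 and ranged between -2.57 and -0.26, and the 19 without it had a median of -1.23 and ranged between -2.16 and 0.14, the last being UBTF. Under vemurafenib the medians were -1.18 and -1.08. Of the genes whose stretches are printed above, LYAR, DDX21, NOP10 and NAT10 fell by 2.57, 1.34, 0.67 and 0.26 on the log2 scale under trametinib.

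Vemurafenib left the genes higher than trametinib did at these doses. In control cells 35 members were called higher under vemurafenib and 0 lower, where 8.78% of all genes were called higher and 7.56% lower. The median difference between drugs, vemurafenib minus trametinib, was 0.14 on the log2 scale, beside 0.01 for all genes tested. MYC differed by 1.33 ± 0.12 (adjusted p = 4.36e-12), NOP16 by 0.35, PPAN by 0.31, POLR1C by 0.25, WDR3 by 0.25, DKC1 by 0.24, POLR1B by 0.23 and NHP2 by 0.22. POLR3G did not pass the test (0.15, 95% interval 0.03 to 0.26, adjusted p = 0.0725). In knockout cells 25 members were higher and 0 lower under vemurafenib, where 10.9% and 8.29% of all genes were called, with a median of 0.08. With library totals in place of TMM factors that count was 16 higher and 0 lower. MYC differed by 0.79 there (adjusted p = 1.35e-08), NOP16 by 0.23, LYAR by 0.20, and POLR3G by -0.02 with an interval between -0.09 and 0.06 (adjusted p = 0.84). Each drug was used at a single dose, and the doses differ.

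Without drug, the knockout lowered most of the genes by less than the drugs did. In DMSO, 44 members were called lower and 1 higher in knockout cells, where 28.6% of all genes were called lower and 29.3% higher, and the median log2 fold change was -0.40, beside 0.00 for all genes tested. MYC was at 10.4, 11.5 and 12.0 CPM with guide 1 and 7.70, 8.93 and 9.28 CPM with guide 2, against 21.9, 23.3 and 23.7 CPM in control cells. The groups did not overlap, and the log2 fold change was -1.22 ± 0.07 (adjusted p = 1.42e-19), a 2.33-fold fall. MYC alone of the 50 fell at least 2-fold, as 3.57% of all genes did. Next came POLR1B with -0.67, WDR3 with -0.65, FBL with -0.64, HEATR1 with -0.63 and UTP4 with -0.63. POLR1B was at 118, 121 and 118 CPM with guide 1 and 104, 105 and 104 CPM with guide 2, against 180, 175 and 180 CPM in control cells (adjusted p = 2.7e-24). POLR3G fell by 0.35 (adjusted p = 2.27e-09). RRN3 was the member that rose, by 0.10 ± 0.03 (adjusted p = 0.00259), at 116, 111 and 113 CPM with guide 1 and 106, 106 and 109 CPM with guide 2, against 106, 103 and 99.7 CPM in control cells. The guide 2 libraries lay just above the highest control library. With guide 1 alone the log2 fold change of RRN3 was 0.143 and was called. With guide 2 alone it was 0.057 and was not called. The 5 members that did not pass the test were GAR1, NOP10, NAT10, PNO1 and NIP7, with values between -0.08 and 0.02. With library totals in place of TMM factors, 36 members were lower and 4 higher. Leave-one-out fits aside, the alternatives called 14408 to 14672 of all genes here.

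By role, the fall in DMSO included 7 of 7 abundant nucleolar proteins (median -0.47), 5 of 7 snoRNP core proteins (-0.41), 2 of 3 modifying enzymes (-0.22), 14 of 15 small-subunit factors (-0.40), 9 of 10 large-subunit factors (-0.33) and 5 of 6 polymerase genes (-0.17). Each guide was also set against the same control libraries. Guide 1 gave 44 members lower and 1 higher with a median of -0.36, where 25.1% and 26.9% of all genes were called, and guide 2 gave 43 lower and 0 higher with a median of -0.44, where 26.9% and 28.1% were.

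In knockout cells both drugs again lowered 49 members and raised UBTF, and the median fall was smaller than in control cells. The median log2 fold change was -0.96 under trametinib and -0.89 under vemurafenib, beside 0.04 for all genes tested in each, and 34.3% and 33.1% of all genes were called lower, 37.2% and 36% higher. A fall of at least 2-fold was found in 22 members under trametinib and 19 under vemurafenib, where 8.62% and 7.42% of all genes were called and fell as far. MYC was at 1.00, 1.09 and 1.16 CPM with guide 1 and 1.13, 1.11 and 0.820 CPM with guide 2 under trametinib, against 10.4 to 12.0 and 7.70 to 9.28 CPM in DMSO. Under vemurafenib it was at 2.38, 1.81 and 2.27 CPM and 1.67, 1.25 and 1.68 CPM. The log2 fold changes of MYC in knockout cells were -3.23 ± 0.08 and -2.44 ± 0.08 (adjusted p = 5.48e-35 and 4.38e-31). LYAR fell by 2.03 and 1.83, NOP16 by 1.72 and 1.48, TCOF1 by 1.5 and 1.43, DKC1 by 1.49 and 1.37, EBNA1BP2 by 1.49 and 1.37, MRTO4 by 1.41 and 1.26, and NME1 by 1.34 and 1.22. POLR3G fell by 0.69 and 0.71.

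The difference between the drug responses, knockout minus control, tested as an interaction, was positive for most members. That is, the fall was smaller in knockout cells. The same value is the knockout effect under the drug minus that in DMSO, so it restates those comparisons on the same libraries. Under trametinib 40 members had a positive and 2 a negative interaction, where 20.8% and 23.2% of all genes did, with a median of 0.33 on the log2 scale beside -0.02 for all genes tested. Under vemurafenib 37 were positive and 2 negative, where 20% and 22.4% of all genes were, with a median of 0.28 beside -0.01. In the same terms, 46 of 50 members had the smaller change in knockout cells under trametinib and 45 under vemurafenib. POLR3G had the largest difference under trametinib, 0.99 ± 0.07 (adjusted p = 1.01e-17), and 0.83 ± 0.07 under vemurafenib (adjusted p = 5.71e-15). NME1 followed with 0.96 ± 0.05 and 0.93 ± 0.05 (adjusted p = 2.51e-20 and 6.69e-20). NHP2, an H/ACA core protein, had 0.80 and 0.63, PUS7 0.65 and 0.56, TSR1, a late small-subunit factor, 0.60 and 0.53, and HEATR1 0.60 and 0.53. Exons of NHP2, HEATR1 and TSR1 overlap genes on the other strand over 27.4%, 23.2% and 20.7% of their bases. Other members with such overlap include NIP7 (20.2%), EBNA1BP2 (18.8%), WDR3 (17.1%), NOP14 (17.1%) and NOP16 (12% with ARL10). The strand setting of the counting is not known, so the values of these genes are uncertain. MYC had 0.83 ± 0.15 under trametinib (adjusted p = 5.16e-06) and 0.30 ± 0.13 under vemurafenib, which did not pass the test (adjusted p = 0.0553) but did by DESeq2's Wald test (adjusted p = 0.0343).

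**Figure D3:**
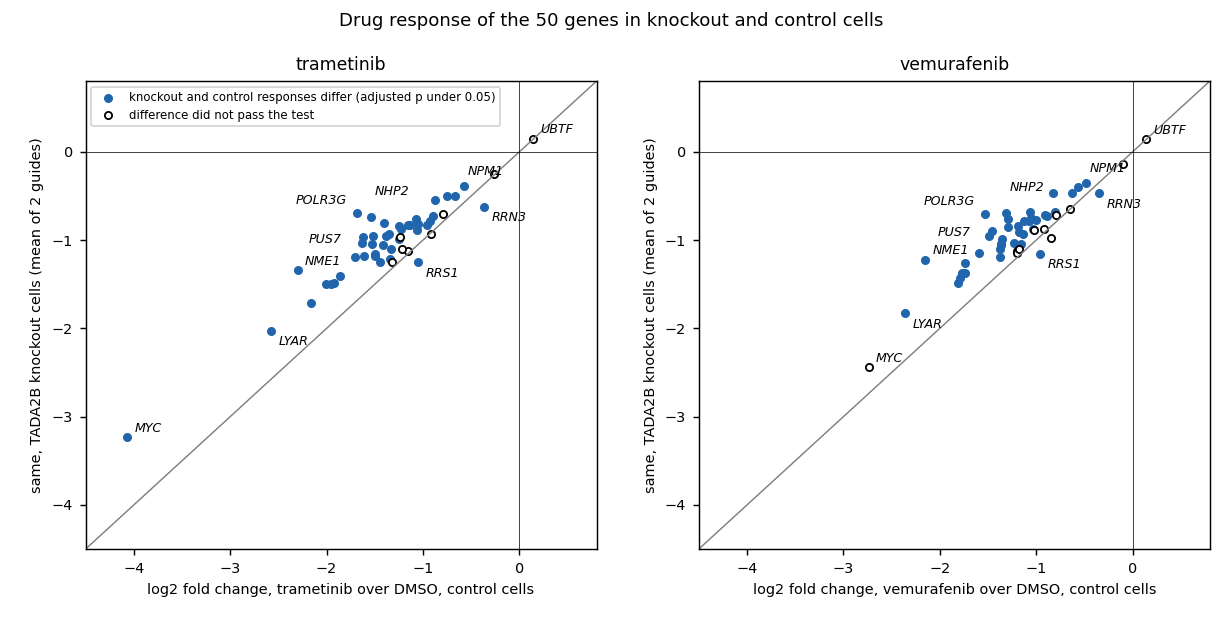
Log2 fold change of each of the 50 genes under trametinib (left) and vemurafenib (right) in knockout cells (y axis, mean of guides) against control cells (x axis), with the line of equal response. Most points lie above the line, RRN3 and RRS1 lie below it, and MYC is the point of largest change.

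RRN3 and RRS1 went the other way. RRN3 fell more in knockout cells. Its interaction was -0.26 ± 0.04 under trametinib and -0.13 ± 0.04 under vemurafenib (edgeR adjusted p = 6.09e-07 and 0.0103). RRN3 has 2 annotated pseudogenes, the highest of which averaged 4.59 CPM, so reads may be split between copies. RRS1, known in yeast for bringing 5S ribosomal RNA into the large subunit, had -0.20 ± 0.05 under each drug (adjusted p = 0.00175 and 0.00168). By role, interactions under trametinib were positive in 7 of 7 nucleolar proteins, 7 of 7 snoRNP core proteins, 1 of 3 modifying enzymes, 11 of 15 small-subunit factors, 8 of 10 large-subunit factors and 4 of 6 polymerase genes. The members without a call under trametinib included NAT10 at 0.01 and UBTF at 0.01. With guide 1 alone 36 members were positive and 2 negative under trametinib, where 17% and 20.5% of all genes were, and with guide 2 alone 40 and 2, where 20.5% and 21.6% were. Under vemurafenib guide 1 gave 34 and 2, where 16.5% and 19.2% of all genes were called, and guide 2 gave 37 and 1, where 19.6% and 21.3% were. Both guides were set against the same control libraries.

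Set against control cells within a drug, the knockout no longer gave a uniform fall. Under trametinib 15 members were higher and 24 lower in knockout cells, where 27.1% of all genes were called higher and 28.8% lower, with a median of -0.04. Under vemurafenib 8 were higher and 25 lower, where 27.3% and 28.3% were, with a median of -0.08. This split depends on the scaling. With library totals alone, 22 were higher and 14 lower under trametinib, and 19 and 19 under vemurafenib. The medians then were 0.06 and 0.03. TMM factors under trametinib were 1.0575 to 1.0901 in knockout libraries, against 0.9854 to 1.004 in control libraries. Under vemurafenib the factors were 1.043 to 1.0717, against 0.9636 to 0.9849. Dropping the factors raises all genes in knockout over control cells, so the turned sign is not particular to the members. Under trametinib guide 1 gave 10 members higher and 25 lower, where 23.6% and 25.8% of all genes were called, and guide 2 gave 16 and 19, where 27.2% were called in each direction. Under vemurafenib guide 1 gave 7 and 24, where 23.9% and 24.6% were called, and guide 2 gave 8 and 24, where 27.1% and 26.9% were.

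Raised most in knockout cells were POLR3G, NME1, NHP2, GAR1, LYAR and TSR1. POLR3G was at 24.6, 23.5 and 23.4 CPM with guide 1 and 27.6, 29.2 and 25.8 CPM with guide 2 under trametinib, against 17.2, 16.0 and 15.9 CPM in control cells. Under vemurafenib it was at 25.1, 25.7 and 25.3 CPM and 22.6, 24.4 and 28.9 CPM, against 18.3, 18.0 and 18.1 CPM. All knockout libraries were above all control libraries, and the log2 fold changes were 0.65 ± 0.05 and 0.48 ± 0.05 (adjusted p = 6.05e-16 and 6.19e-12). NME1 was at 28.6, 31.3 and 32.3 CPM with guide 1 and 31.8, 32.7 and 32.6 CPM with guide 2 under trametinib, against 21.8, 23.1 and 22.4 CPM in control cells. It was at 32.7, 33.7 and 31.7 CPM and 38.0, 36.8 and 33.1 CPM under vemurafenib, against 25.1, 23.7 and 25.5 CPM. Again no libraries overlapped, with log2 fold changes of 0.49 ± 0.04 and 0.47 ± 0.04 (adjusted p = 9.38e-15 and 3.59e-14). NHP2 was higher by 0.39 and 0.22, GAR1, another H/ACA protein, by 0.27 and 0.34, LYAR by 0.25 and 0.23, TSR1 by 0.18 and 0.12, NOP10 by 0.10 and 0.11, and NIP7, a large-subunit factor, by 0.12 and 0.08. Under trametinib alone NOP16 (0.17), POLR1C (0.13), DKC1 (0.10), RRP12 (0.09), POLR1A (0.09), EBNA1BP2 (0.09) and PUS7 (0.09) were also called higher; the difference of these calls between drugs was not tested.

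Lowered most in knockout cells under trametinib were RRS1 (-0.40), MYC (-0.39), NPM1 (-0.38), UTP20 (-0.35), NOP14 (-0.34) and RRP1B (-0.34). Under vemurafenib they were MYC (-0.92), NPM1 (-0.44), NOP14 (-0.43), BOP1 (-0.41), RRS1 (-0.40) and UTP20 (-0.37). MYC was at 1.00 to 1.16 CPM with guide 1 and 0.820 to 1.13 CPM with guide 2, against 1.26 to 1.45 CPM in control cells, under trametinib. The groups did not overlap, but the gap was a fraction of 1 CPM (adjusted p = 0.00863), and without replicate 2 of the control cells under trametinib the difference did not pass the test (adjusted p = 0.0512). RRS1 was at 24.9, 26.2 and 24.6 CPM with guide 1 and 24.9, 23.1 and 23.8 CPM with guide 2 under trametinib, against 30.7, 32.3 and 34.4 CPM in control cells. Its knockout libraries were all lower, with adjusted p = 1.09e-12.

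**Figure D4:**
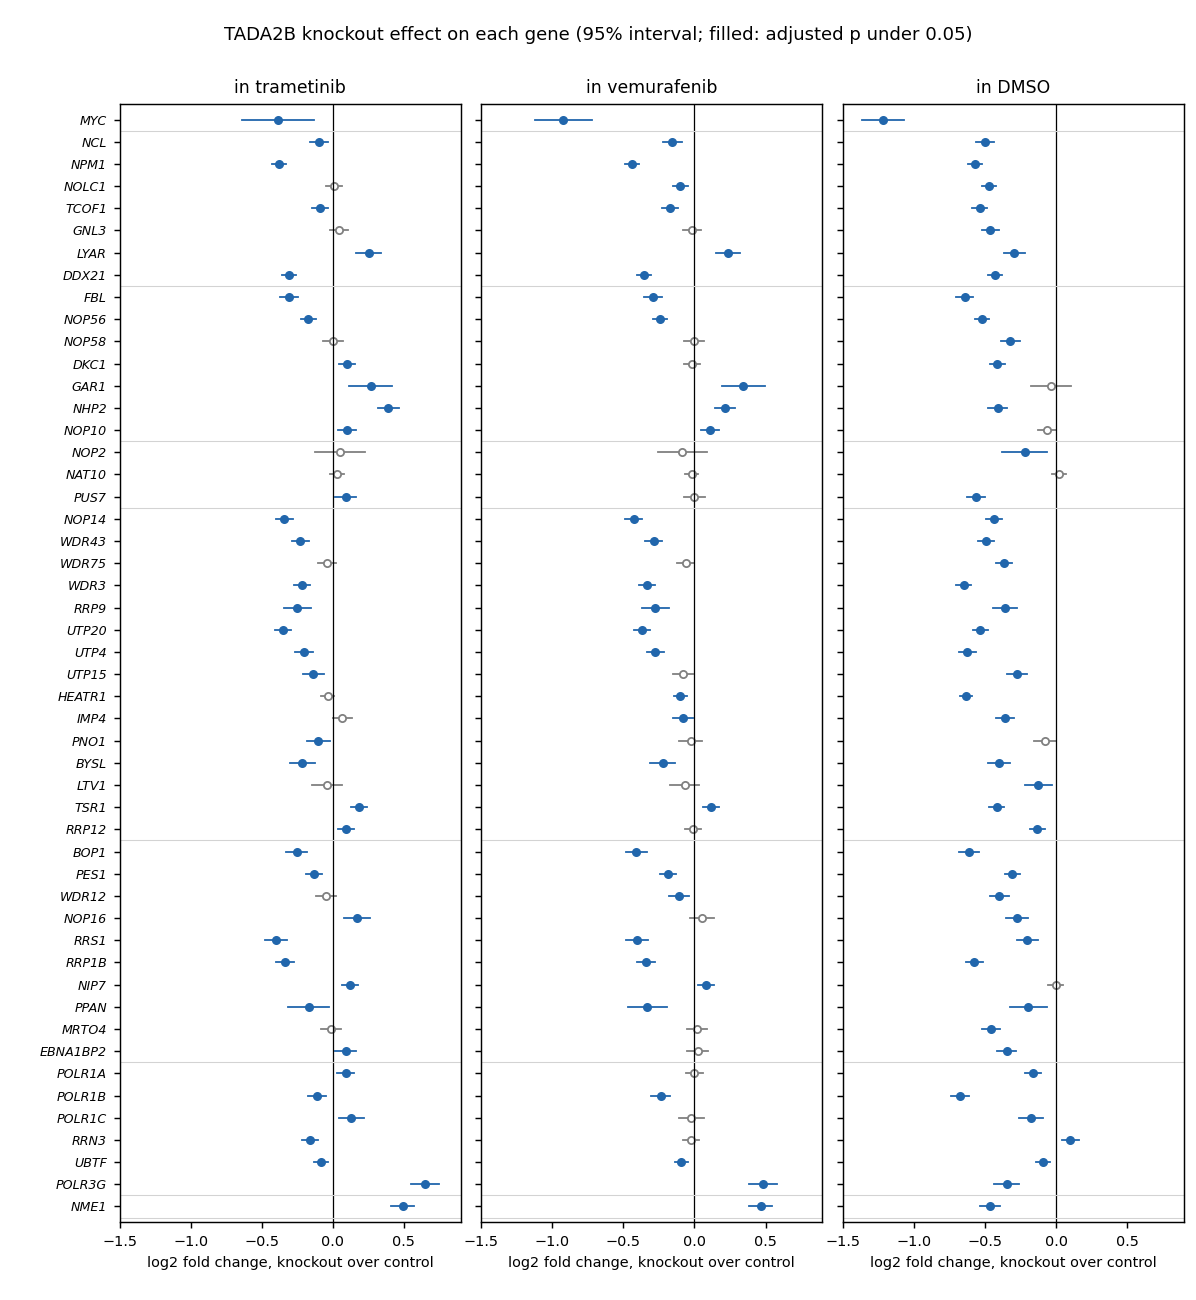
Log2 fold change of each gene in knockout over control cells under trametinib, vemurafenib and DMSO, with 95% intervals from edgeR; filled points passed an adjusted p under 0.05. The DMSO panel has 44 filled points left of 0, and the drug panels have filled points on both sides, with POLR3G and NME1 furthest to the right.

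POLR3G has a paralog, POLR3GL, which takes its place in another form of RNA polymerase III, and the paralogs moved in opposite directions. POLR3GL was at 26.75, 29.02 and 29.38 CPM under trametinib and 26.1, 27.9 and 26.9 CPM under vemurafenib, against 11.5, 11.4 and 11.3 CPM in DMSO, in control cells. It rose by a log2 fold change of 1.32 ± 0.05 and 1.24 ± 0.05 (adjusted p = 1.27e-26 and 1.72e-25). Per kb of exon, the ratio of POLR3G to POLR3GL was 0.259 ± 0.025 under trametinib and 0.302 ± 0.012 under vemurafenib, against 2.07 ± 0.03 in DMSO, in control cells (SD, n = 3). In knockout cells it was 0.414 and 0.517 under trametinib and 0.456 and 0.480 under vemurafenib, with guide 1 and guide 2, against 1.54 and 1.33 in DMSO. Within each drug all knockout libraries had the higher ratio, and in DMSO all had the lower. The interaction of POLR3GL was negative, -0.38 under trametinib and -0.34 under vemurafenib (adjusted p = 4.24e-06 and 3.02e-05).

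**Figure D5:**
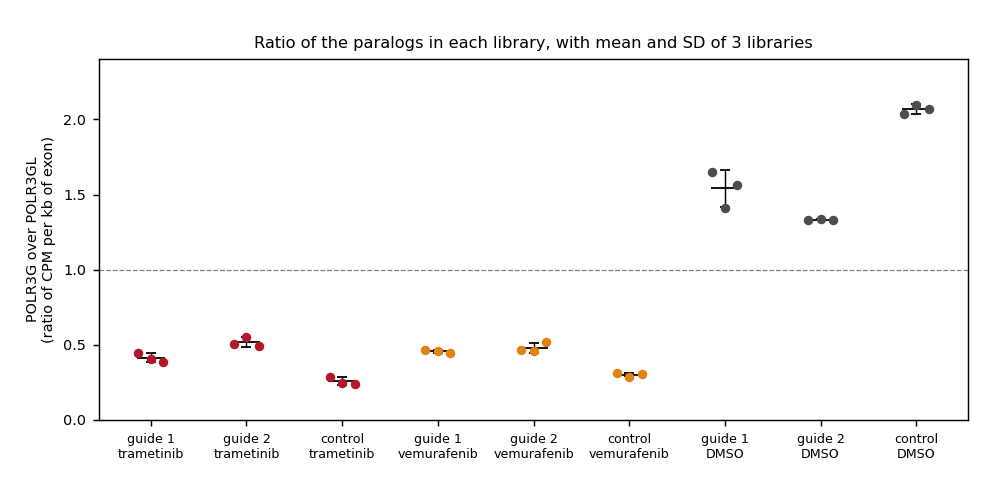
Ratio of POLR3G to POLR3GL in CPM per kb of exon in each library (points), with mean and SD of 3 libraries; the dashed line marks equal levels. All 9 DMSO libraries lie above 1 and all drug-treated libraries lie below it.

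The count of members that differed between the guides moved with single libraries and with the setting. In DMSO 1 member was higher and 7 lower with guide 2 than with guide 1, where 4.64% and 7.29% of all genes were called. MYC had -0.39 ± 0.09 (adjusted p = 0.00185), POLR1B -0.19, WDR3 -0.18, POLR3G -0.18, BOP1 -0.12 and RRP12 -0.10, and TCOF1 was higher by 0.14. The total of 8 became 4 without guide 1 replicate 1 or replicate 3, and 5 without any 1 of the guide 2 replicates. It was 5 with library totals and with no low-count filter, 17 by DESeq2's Wald test and 20 when the compared groups alone were fitted. Over all genes, 2287 to 2452 were called with 1 library left out, and 2893 to 4163 under the other alternatives. Under trametinib 11 were higher and 2 lower, where 10.8% and 8.91% of all genes were. POLR3G differed by 0.21, LYAR by 0.15, TCOF1 by 0.15, FBL by 0.14, NPM1 by 0.13 and GNL3 by 0.12, against RRP9 with -0.17 and NOP56 with -0.08, and MYC by -0.10 without passing the test (adjusted p = 0.754). The total of 13 became 6 without guide 1 replicate 1 and 8 without guide 2 replicate 3. With 1 library left out, 3968 to 4300 of all genes were called. Under vemurafenib 3 were higher (NME1 0.14, NOLC1 0.09, HEATR1 0.09) and 2 lower (MYC -0.49, RRS1 -0.16), where 7.12% and 8.85% of all genes were, and POLR3G did not pass the test (adjusted p = 0.978). The total of 5 became 2 without guide 1 replicate 3 or guide 2 replicate 1 or 2, and 9 without guide 2 replicate 3. It was 13 with library totals, 3 with no low-count filter and 1 with the compared groups alone. Over all genes, 3217 to 3979 were called with 1 library left out, and 3283 to 4633 under the other alternatives.

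Most other genes of the same machinery were also called lower under the drugs. For all genes tested, 32.5% were called lower and 36.4% higher under trametinib in control cells, with a median of 0.06. Under trametinib in control cells 37 of 39 other small-subunit factors fell and 1 rose (median -0.81), with DCAF13 at -1.59 and NOL6 at -1.57. Of 47 other large-subunit factors 44 fell and 1 rose (median -0.84), with BRIX1 at -1.80. Of 12 snoRNP assembly factors and chaperones 10 fell and 1 rose (median -0.62), with RUVBL1 at -1.61, and of 14 RNA exosome genes 11 fell and 2 rose (median -0.87). Of 12 other polymerase I genes 11 fell and 1 rose (median -0.50), with TAF1A, a subunit of the SL1 promoter factor, at -1.73. Of 16 other polymerase III genes 12 fell and 1 rose (median -0.48), with POLR3GL as the one that rose and POLR3K at -1.29.

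Under vemurafenib in control cells the same lists had medians of -0.70, -0.74, -0.61, -0.79, -0.45 and -0.46, in that order. In DMSO the knockout lowered 31 of 39 other small-subunit factors and raised 1 (median -0.21), and it lowered 37 of 47 other large-subunit factors and raised 2 (median -0.28), where 28.6% of all genes were called lower and 29.3% higher with a median of 0.00. Interactions under trametinib were positive in 21 and negative in 6 of the small-subunit factors, and positive in 31 and negative in 3 of the large-subunit factors, with medians of 0.14 and 0.17, where 20.8% and 23.2% of all genes were called with a median of -0.02. NOL6 had the largest among the small-subunit factors, 0.75. These are lists of names, with no test of the list.

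Of 16 partners and regulators of MYC, 7 rose and 6 fell under trametinib in control cells (median -0.05), counts near the 36.4% and 32.5% of all genes called higher and lower. CIP2A, an inhibitor of the phosphatase that acts on MYC, fell by 2.62, PIM1, a kinase, fell by 1.63, and MXD4, a repressor that competes with MYC for MAX, rose by 1.20. In knockout cells under trametinib PIM1 was higher than in control cells by 1.24. Of 33 other genes long known as MYC targets 28 fell and 4 rose under trametinib (median -1.26), with RANBP1 at -2.23 and the nucleotide synthesis genes PAICS at -2.0 and CTPS1 at -1.99, and 31 fell and 2 rose in knockout cells in DMSO (median -0.42), where 28.6% of all genes fell and 29.3% rose. Within trametinib, ODC1, the first enzyme of polyamine synthesis, was higher by 1.32 and SRM, spermidine synthase, lower, with a log2 fold change of -1.498, in knockout cells. Of 13 transcripts that host snoRNAs or other small RNAs, 7 fell and 3 rose in control cells under trametinib (median -0.11). In DMSO all 13 fell in knockout cells (median -0.43), with SNHG1 at -0.75 and GAS5 at -0.64.

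Genes listed as MAPK output were read in the same libraries. All 10 fell under trametinib in control cells (median -4.79), where 32.5% of all genes were called lower with a median of 0.06. SPRY4 was at -8.07 and DUSP6 at -7.12. Under vemurafenib all 10 fell (median -3.48), where 31.6% were called lower with a median of 0.06. All 10 were higher under vemurafenib than under trametinib in control cells (median 1.03), as MYC was. There 8.78% of all genes were called higher, with a median of 0.01.

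Across the 9 group means, 46 of 50 members were highest in control cells in DMSO and 48 were lowest in a trametinib group. The exceptions at the top were NAT10 and RRN3, highest with guide 1 in DMSO, NIP7, highest with guide 2 in DMSO, and UBTF, highest in control cells under vemurafenib. The median Pearson r between members was 0.965 over these 9 means, 969 of 1225 pairs had r over 0.9, and 43 members had r over 0.9 with MYC. The points share their libraries and the contrast of drug and DMSO, so this is a description. UBTF had r = -0.65 with MYC, and among the rest POLR3G had the lowest, 0.80. Counts of all 50 members together made up 0.450% and 0.472% of a library's scaled counts with guide 1 and guide 2, against 0.515% in control cells, under trametinib. They made up 0.477% and 0.485%, against 0.558%, under vemurafenib, and 0.809% and 0.789%, against 1.09%, in DMSO. NPM1 alone was at 1635 of these CPM in control cells under trametinib, and without NPM1 the shares under trametinib were 0.330% and 0.340%, against 0.351%. With library totals in place of TMM factors, the guide 2 libraries under trametinib had 0.511%, 0.504% and 0.502%, against 0.509%, 0.514% and 0.516% in control cells, so those groups overlapped. Both alternatives for the share were chosen after the data were seen.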

How the data were processed

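RNA of A375 cells was sequenced as polyA libraries made with a stranded mRNA kit, per the labels' protocols. The authors deposited raw whole-number counts per gene. Per the submitters' processing notes, bcl2fastq, HISAT2 and HTSeq were used with hg38; tool versions, the annotation and the strand setting were not given there. Gene IDs were paired with symbols and exons through GENCODE and a table of gene names. No row named something other than a gene (0 rows), and 12466 rows held no count. Library totals were 67502300 to 92513726, and a member's count in a library was at least 70.

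The test was edgeR 4.0.16's quasi-likelihood test in R 4.3.3, with TMM factors (0.866 to 1.09), filterByExpr and a fit of 9 group means on all 27 libraries (18 residual degrees of freedom). Genes were called at an adjusted p (Benjamini-Hochberg over 25199 genes) under 0.05. All single-gene p-values in the text are adjusted p from edgeR unless another tool is named. The knockout effect is the mean of the guides minus control, and an interaction is the drug response in knockout cells minus that in control cells. Errors of log2 fold changes are standard errors. The scripts were tested on simulated data. Replicates were not copies of each other, since chi-square over degrees of freedom was at least 2.96 in each pair.

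The members, the other gene lists and the tests were chosen with earlier results of these data known. Named were MYC and POLR3G throughout, up to 8 called members of largest change in each direction in drug comparisons and 6 in the others, all members called against the majority, examples of each role, and up to 3 called genes of other lists. Markers of keratinocytes, leukocytes and endothelium summed to at most 63.6, 36.7 and 23.4 CPM in a library. Alternatives were DESeq2 1.42.0 (size factors, Wald test), library totals alone, limma 3.58.1 voom, no low-count filter, a replicate block, the compared groups alone, and leaving out each library.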

Additional observations from a re-analysis of the deposited data

Results flagged for a closer look

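The genes below are listed because the response to a drug differed between knockout and control cells by the interaction test, as log2 fold change in knockout minus control cells. Under trametinib 42 members differed, where 20.8% of all genes had a positive and 23.2% a negative interaction. Of the named ones, POLR3G had 0.992, NME1 0.956, MYC 0.833, NHP2 0.803, PUS7 0.655 and TSR1 0.602, and RRN3 had -0.259 and RRS1 -0.199. Under vemurafenib 39 members differed, where 20% of all genes had a positive and 22.4% a negative interaction. Named were NME1 at 0.932, POLR3G at 0.827, NHP2 at 0.628, PUS7 at 0.564, HEATR1 at 0.534, TSR1 at 0.533, RRS1 at -0.201 and RRN3 at -0.126. Both interactions use the same DMSO libraries.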

How the results depend on the processing

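Each drug comparison gave 50 calls under every alternative run, except vemurafenib in knockout cells with library totals alone, which gave 49. Library totals moved the median of all genes by over 0.1 in each of the following comparisons. It became 0.24 and 0.22 for trametinib and vemurafenib in control cells, 0.21 and 0.18 in knockout cells, and 0.13 for the knockout in DMSO. The members are to be read beside these medians. With library totals alone, 36 members differed with the knockout under trametinib and 38 under vemurafenib. Their medians turned to 0.061 and 0.028, an upward shift that this scaling gives all genes. Between the drugs in knockout cells 16 members differed, and between the guides 5 in DMSO and 13 under vemurafenib. Leave-one-out fits aside, the alternatives called 13929 to 14194 and 13384 to 14131 of all genes for the knockout under trametinib and vemurafenib. They called 4597 to 4948 between the drugs in knockout cells, and 2893 to 4163 and 3283 to 4633 between guides in DMSO and under vemurafenib. Between guides in DMSO, DESeq2's Wald test called 17, no filter 5 and the compared groups alone 20; under vemurafenib, no filter gave 3 and the compared groups alone 1. The causes were not tested.

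Leaving out 1 library gave 50 to 50 members in the 4 drug comparisons, 24 to 35 and 18 to 26 for vemurafenib minus trametinib in control and knockout cells, 44 to 46, 33 to 39 and 31 to 34 for the knockout in DMSO, trametinib and vemurafenib, 40 to 44 and 35 to 42 for the interactions, and 4 to 7, 6 to 10 and 2 to 9 for the guides in DMSO, trametinib and vemurafenib. In the same order, all genes called were 16236 to 17820 in the drug comparisons, and 3145 to 4189 and 4311 to 5076 between drugs. For the knockout they were 13409 to 14278, 12952 to 13927 and 12931 to 14066. The interactions had 10353 to 11000 and 10073 to 10812, and the guides 2287 to 2452, 3968 to 4300 and 3217 to 3979. MYC's interaction under vemurafenib had an adjusted p between 0.0172 and 0.252 over the alternatives. Replicate numbers showed no clear pairing of libraries, though this check cannot exclude a weak one. Same-numbered libraries had a median r of 0.0107 between deviations, against -0.00385 for different numbers. Of same-numbered pairs 39 of 108 had r over 0.1, against 62 of 216 of the others, and 11 of 27 libraries correlated best with their own number. A replicate block gave 42 and 39 members for the interactions, 45 for the knockout in DMSO and 6 for the guides in DMSO, with no count moved by over 1.5 times.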
